A study of Mus musculus with 6 samples.

Results

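Macrophage transcripts were measured in cultures of bone marrow mesenchymal stem cells (MSCs), the plastic-adherent stromal progenitors of bone, cartilage and fat cells. The 43 genes described were chosen by symbol: 36 identity genes, expressed by most macrophages, and 7 activation genes (Arg1, Chil3, Retnla, Mrc1, Cd163, Trem2 and Gpnmb), whose levels depend on the state of the cell. Of the 43, 41 were listed among the 15063 genes of the files, with all 36 identity genes and 5 activation genes. Expression of Retnla and Cd163 was not analysed here.

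Macrophages are phagocytes of the myeloid lineage. Their survival depends on CSF1R, the receptor for the growth factor CSF1, which stromal cells secrete, and their gene programme depends on the transcription factor PU.1, encoded by Spi1. Macrophages adhere to plastic like stromal cells do, and they are a known companion of stromal cells in mouse bone marrow cultures.

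The cultures came from 3-week-old mice. The wild-type (WT) group had 3 libraries, and the group with a conditional knockout of Mapk7 (CKO) had 3. Mapk7 encodes ERK5, a MAP kinase upstream of the transcription factor gene Klf2. All cultures were grown in α-MEM with serum. WT library 2 was labelled passage 7 and the other 5 libraries passage 5. The sources used here do not give the promoter that drives Cre in the knockout or the cells in which Mapk7 was deleted. Beyond animal numbers in the descriptions, nothing in the labels says how separate a group's libraries were, so each p-value below reflects only how these libraries varied, which may be technical.

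Each library held 17351907 to 20689481 counted reads, and expression is given in RPKM (reads scaled to gene length and library total). Col1a1, the main stromal collagen gene, lay between 1126 and 2959 RPKM, and the 7 listed endothelial markers lay below 1 RPKM in every library. The mean log2(RPKM + 1) of 16 stromal genes was 7.34 to 7.99 in WT against 6.28 to 7.38 in CKO. Mapk7 itself was at 7.12, 6.76 and 9.07 RPKM in the WT libraries against 5.59, 3.84 and 5.45 RPKM in the CKO libraries. It was lower in each CKO library but not absent (limma adjusted p = 0.505). Groups without overlap were seen in 16.7% of all tested genes. Klf2 was at 23.5 to 62.3 RPKM in WT against 1.31 to 3.10 RPKM in CKO (limma adjusted p = 0.0765). WT library 2 stood apart from the others. Its 10 proliferation genes averaged 1.04 on the log2(RPKM + 1) scale against 3.62 to 4.93 elsewhere. WT libraries 1 and 2 carry 1 animal label in their descriptions. The Y-linked gene Ddx3y was at 0.0357 RPKM (3 reads) in WT library 1 and at 19.1 RPKM in WT library 2, so their values go against a shared animal. The 4 listed Y-linked genes summed to 0.111 RPKM in WT library 1 and to 14.7 to 29.8 RPKM in every other library. Any effect of this on the genotype comparison was not tested.

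Macrophage transcripts were present in all 6 libraries, and their level differed more between libraries of 1 genotype than between genotypes. The mean log2(RPKM + 1) of the 36 identity genes, called the identity level, was 3.22, 2.64 and 4.40 in the WT libraries, in order of their number, against 3.02, 2.24 and 4.40 in the CKO libraries. Library 3 of each genotype was the highest of its group and library 2 the lowest, and the groups overlapped. The group means were 3.42 ± 0.90 (SD, n = 3) in WT and 3.22 ± 1.09 (SD, n = 3) in CKO, a CKO minus WT difference of −0.20, smaller than either SD. The sign of this difference turned without WT library 3 (0.29) or CKO library 2 (0.29), and the difference grew to −0.59 when WT library 2 was left out and to −0.79 when CKO library 3 was. As a share of counted reads, the 36 genes took 0.167%, 0.124% and 0.374% in WT and 0.121%, 0.0637% and 0.538% in CKO. Bulk values cannot tell fewer macrophages from less RNA per macrophage.

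**Figure D1:**
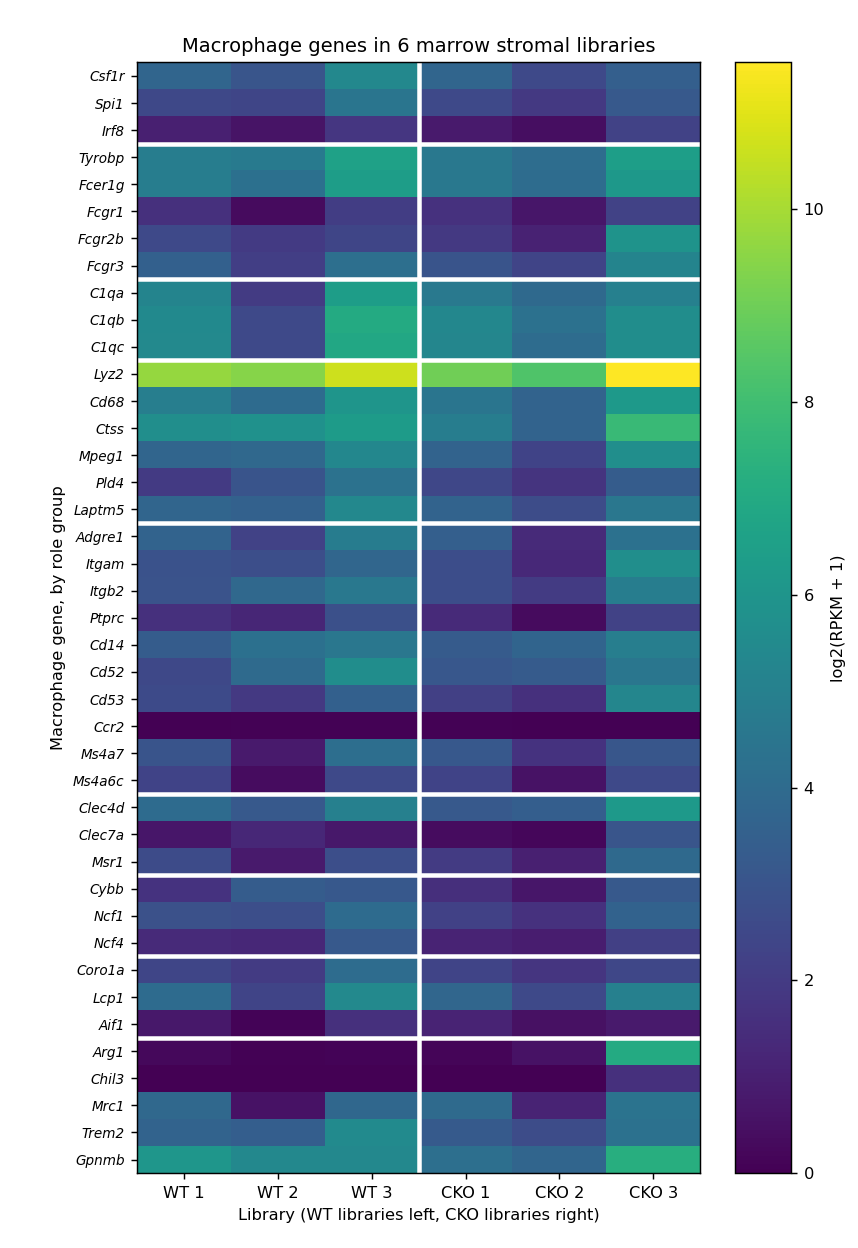
Colour gives log2(RPKM + 1) of the 41 listed macrophage genes (rows, grouped by role, white lines between groups) in the 3 WT and 3 CKO libraries (columns). WT 3 and CKO 3 are the brightest columns for most rows, Lyz2 is the brightest row, and Arg1 is bright in CKO 3 alone.

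The peaks of single genes followed the same libraries. Of the 41 listed genes, 21 were highest in WT library 3 and 19 in CKO library 3. The remaining gene, Cybb, was highest in WT library 2. The lowest value lay in CKO library 2 for 25 genes and in WT library 2 for 13. Over all 15063 genes the highest value lay in WT library 3 for 1673 genes and in CKO library 3 for 3472, and the lowest in CKO library 2 for 4038 and in WT library 2 for 5283. CKO library 3 also held the lowest Pearson correlation with another library across genes, 0.795 with WT library 2.

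None of the macrophage genes differed between the genotypes by the test. Of the 41 listed, 35 passed the filter of at least 1 RPKM in at least 3 libraries: 32 identity genes and 3 activation genes. The 6 below it were Irf8, Ccr2, Clec7a, Aif1, Arg1 and Chil3. In the limma fit on log2(RPKM + 1), with p-values adjusted over all 11085 tested genes, 0 of the 35 passed the threshold of 0.05, where 0.00902% of all tested genes (1 gene) did. At an unadjusted p under 0.05 the count was 0 of 35, against 9.74% of all tested genes. In 0 of 35 did the 3 CKO values lie entirely on 1 side of the 3 WT values, against 16.7% of all tested genes. With voom on the recovered reads the count was again 0, also at an unadjusted p under 0.05.

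The 32 tested identity genes had a median CKO minus WT log2 difference of −0.26, with 21 below and 11 above 0, beside a median of 0.03 over all tested genes. Their differences ran from −0.91 to 0.67, with standard errors of 0.49 to 1.14, and all 32 of the 95% intervals spanned 0. The median interval was 3.66 log2 units wide. Leaving out WT library 3 or CKO library 2 turned the median to 0.28 and 0.33, and leaving out WT library 2 or CKO library 3 gave −0.66 and −0.86.

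**Figure D2:**
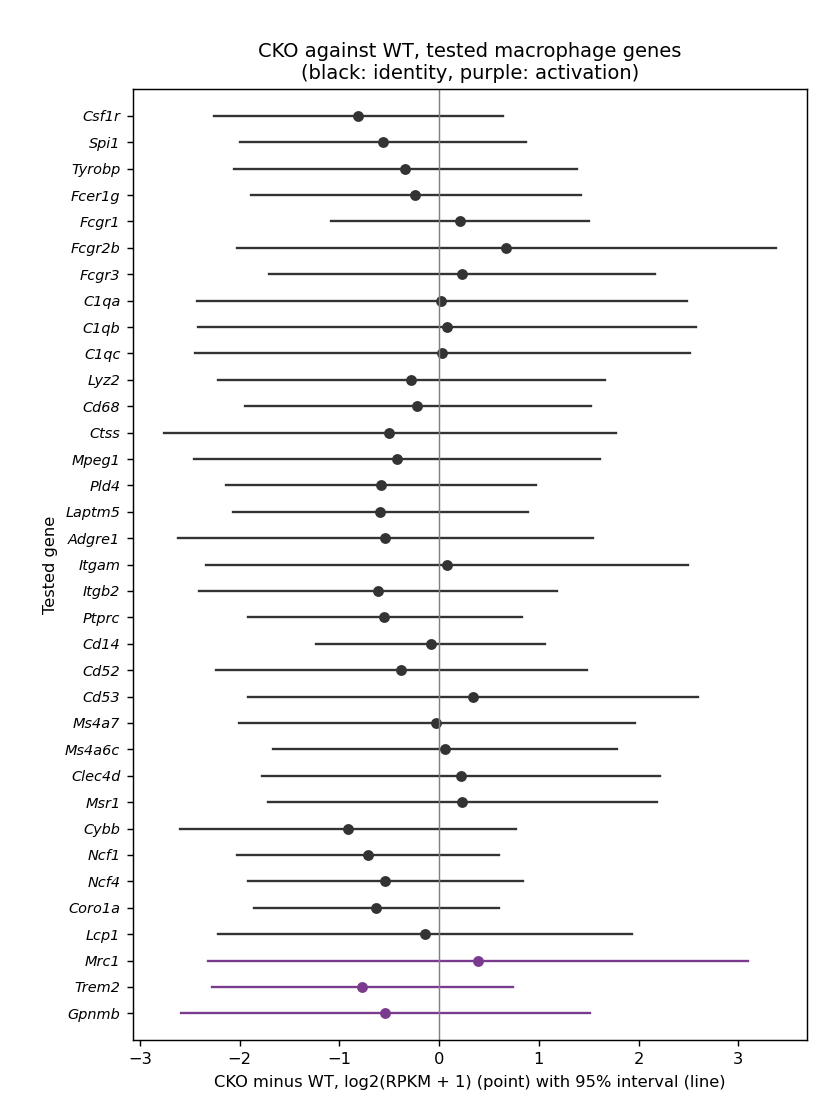
Points show the CKO minus WT difference in log2(RPKM + 1) of the 35 tested genes and lines its 95% interval from limma, for identity genes in black and activation genes in purple. All 35 intervals cross the vertical line at 0.

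Csf1r and Spi1 were highest in WT library 3, and Irf8 in CKO library 3. Csf1r was at 12.7, 7.18 and 40.9 RPKM in WT, compared with 12.4, 4.84 and 10.2 RPKM in CKO. Spi1 was at 4.68, 4.34 and 21.5 RPKM in WT against 4.91, 2.81 and 8.44 RPKM in CKO. For both genes WT library 3 lay above the other 5, and WT and CKO libraries 1 were nearly equal. Irf8, which encodes a transcription factor of monocytes and dendritic cells, was at 0.99, 0.521 and 2.5 RPKM in WT, compared with 0.769, 0.331 and 3.77 RPKM in CKO. Csf1r had the lowest p of the identity genes below 0, with a log2 difference of −0.81 (SE 0.62, 95% interval −2.26 to 0.64, limma adjusted p = 0.685). Without WT library 3 this difference was −0.15.

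PU.1 binds DNA at purine-rich sites with the core letters GAGGAA, and sequences upstream of macrophage genes are shown for these letters. Any part of PU.1 in the shared peaks of these genes was not tested. The 250 bases before the RefSeq start (build GRCm38.p6) were searched on both strands for GAGGAA, which reads TTCCTC on the other strand. The longer form GAGGAAGT, which contains the shorter one, was searched as well. Of the 43 genes 32 matched the RefSeq table, Retnla and Cd163 among them, and Csf1r, Spi1, Tyrobp, C1qa, Adgre1, Itgb2, Cd14, Cd52, Msr1, Ncf4 and Arg1 did not. GAGGAA was found in 16 of the 32 (50%), against 25.9% of 27025 genes in the table and 26.2% of the 11890 matched genes listed in the files. GAGGAAGT was found in 2 of the 32 (6.25%), 1 of them Retnla, against 2.79% of all genes in the table. Each line gives the last 120 bases before the start, written 5′ to 3′ on the gene's strand, with GAGGAA or TTCCTC in capitals. The first 5 hold a match, and Fcgr2b holds none in the 250 bases. Of matched genes highest in CKO library 3, Itgam, Clec7a, Fcgr1, Fcgr3, Cd68, Ctss, Cd53, Clec4d and Mrc1 hold GAGGAA in the 250 bases. Fcgr2b, Lyz2, Mpeg1, Irf8, Gpnmb and Chil3 do not. Of matched genes highest in WT library 3, C1qb, C1qc, Laptm5, Ptprc, Aif1 and Trem2 hold it. Lcp1, Coro1a, Fcer1g, Pld4, Ms4a7, Ms4a6c, Ncf1 and Ccr2 do not.
C1qb (chr4:136886201-136886320, minus strand): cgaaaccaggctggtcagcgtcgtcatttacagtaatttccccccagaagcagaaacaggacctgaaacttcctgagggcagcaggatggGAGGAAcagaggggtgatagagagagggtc
Fcgr1 (chr3:96293970-96294089, minus strand): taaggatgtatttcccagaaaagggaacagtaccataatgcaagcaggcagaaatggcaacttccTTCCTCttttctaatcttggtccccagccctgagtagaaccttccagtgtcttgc
Fcgr3 (chr1:171059395-171059514, minus strand): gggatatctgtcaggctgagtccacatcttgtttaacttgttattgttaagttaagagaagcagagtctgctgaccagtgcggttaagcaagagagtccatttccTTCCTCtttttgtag
Itgam (chr7:128062520-128062639, plus strand): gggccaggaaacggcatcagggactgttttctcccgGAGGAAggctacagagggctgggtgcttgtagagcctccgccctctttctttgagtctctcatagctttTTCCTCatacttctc
Trem2 (chr17:48346281-48346400, plus strand): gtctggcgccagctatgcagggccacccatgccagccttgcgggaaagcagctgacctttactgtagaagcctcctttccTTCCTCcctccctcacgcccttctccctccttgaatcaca
Fcgr2b (chr1:170976072-170976191, minus strand): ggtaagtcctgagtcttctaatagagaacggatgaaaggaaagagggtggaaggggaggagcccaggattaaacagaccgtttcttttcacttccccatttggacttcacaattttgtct
Fcgr3 has a second start in the table, and the line shows 1 of them. A match is a description of the letters and not a measured binding site.

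Fc receptors bind antibody-coated particles. Fcer1g encodes the signalling chain of the activating Fc receptors, and Tyrobp encodes DAP12, a related adaptor of myeloid receptors such as TREM2. Tyrobp was at 28.5, 25.6 and 96.5 RPKM in WT against 23.6, 16.5 and 87.1 RPKM in CKO. Fcer1g was at 28.2, 17.8 and 85.1 RPKM in WT, compared with 23.4, 15.9 and 69.0 RPKM in CKO. The adaptors kept close to each other, with Fcer1g at 0.699 to 0.993 times Tyrobp in each library. Both were about as high in WT library 3 as in CKO library 3.

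The Fc receptor genes had differing patterns. Fcgr3, an activating receptor gene, was at 10.6, 3.39 and 17.6 RPKM in WT against 6.99, 4.17 and 36.1 RPKM in CKO. Fcgr2b, the inhibitory receptor gene, was at 4.92, 2.84 and 4.32 RPKM in WT, compared with 2.76, 1.17 and 59.0 RPKM in CKO. CKO library 3 thus stood alone for Fcgr2b, 12-fold above the next library. Fcgr2b was 0.245 to 0.838 times Fcgr3 in 5 libraries and 1.63 times Fcgr3 in CKO library 3. Fcgr1, the high-affinity receptor gene, stayed between 0.261 and 3.87 RPKM. The genes for Fcgr2b and Fcgr3 are alike in sequence, and how reads that fit both were counted is not given in the sources used here. The log2 difference was −0.34 (SE 0.73, interval −2.06 to 1.38, limma adjusted p = 0.889) for Tyrobp. For Fcgr2b, the identity gene above 0 with the lowest p, it was 0.67 (SE 1.14, interval −2.03 to 3.38, limma adjusted p = 0.861). Without CKO library 3 the difference of Fcgr2b was −0.79, and Tyrobp turned to 0.26 when WT library 3 was left out and to 0.13 when CKO library 2 was.

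C1qa, C1qb and C1qc encode the chains of C1q, the recognition molecule of classical complement, which tissue macrophages secrete. C1qb was at 42.8, 4.86 and 131.6 RPKM in WT against 39.2, 18.8 and 49.1 RPKM in CKO. C1qa was at 35.2, 2.99 and 84.2 RPKM in WT, compared with 24.4, 14.5 and 31.8 RPKM in CKO. C1qc was at 41.7, 4.91 and 121.1 RPKM in WT against 38.4, 15.7 and 48.8 RPKM in CKO. The chains varied together: C1qc was 0.837 to 1.01 times C1qb and C1qa 0.616 to 0.821 times C1qb in each library. All 3 were highest in WT library 3 and lowest in WT library 2. The log2 difference of C1qb was 0.08 (SE 1.06, interval −2.42 to 2.57, limma adjusted p = 0.987). Leaving out WT library 2 gave −1.16 and leaving out WT library 3 gave 1.09. Without CKO library 1 or CKO library 3 it was −0.04 and −0.20, so its sign rested on single libraries.

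Lyz2, the gene for lysozyme M, was the most abundant identity gene in every library and made up 57.9 to 72.0% of the summed RPKM of the 36. Lyz2 was at 827, 686 and 1589.97 RPKM in WT, compared with 529, 321 and 2948 RPKM in CKO, with CKO library 3 highest. Lyz1 is a near-identical copy of Lyz2, and how shared reads were counted is not given in the sources used here. Ctss, which encodes the lysosomal protease cathepsin S, was at 51.5, 55.2 and 79.2 RPKM in WT against 28.4, 11.7 and 223 RPKM in CKO. Cd68, a lysosomal membrane gene, was at 29.3, 15.5 and 64.1 RPKM in WT, compared with 21.0, 11.8 and 73.0 RPKM in CKO. Mpeg1, the gene for the pore protein perforin-2, and Laptm5 and Pld4, further endolysosomal genes, lay between 2.33 RPKM (Pld4, CKO library 2) and 51.1 RPKM (Mpeg1, CKO library 3). All 6 lysosomal and phagosomal genes lay below 0 in the comparison, and none passed. The log2 difference of Lyz2 was −0.28 (SE 0.83, interval −2.22 to 1.66, limma adjusted p = 0.923), and its sign turned without WT library 3 (0.08), CKO library 1 (0.01) or CKO library 2 (0.37).

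Among the surface and adhesion genes, the highest were Cd52, Cd14 and Itgam. Cd52, a small glycoprotein gene of leukocytes, was at 4.58, 14.6 and 49.8 RPKM in WT against 7.77, 9.04 and 21.8 RPKM in CKO. Cd14, the lipopolysaccharide co-receptor gene, was at 9.23, 18.1 and 22.9 RPKM in WT, compared with 9, 12 and 29.4 RPKM in CKO. Itgam, which encodes the integrin chain CD11b, was at 6.56, 5.77 and 13.1 RPKM in WT against 5.63, 1.48 and 50.5 RPKM in CKO. Cd52 was thus highest in WT library 3, Itgam stood out in CKO library 3, and Cd14 varied least of these. Adgre1, the gene for the macrophage antigen F4/80, ranged from 1.62 to 27.6 RPKM. Ptprc, the gene for the pan-leukocyte antigen CD45, ranged from 0.255 to 6 RPKM. The integrin chain gene Itgb2 (CD18) ranged from 3.07 to 28.2 RPKM and the tetraspanin gene Cd53 from 1.99 to 37.7 RPKM. Ms4a7 and Ms4a6c, which encode 4-pass membrane proteins, ranged from 0.789 to 17.1 and from 0.287 to 4.90 RPKM. Ccr2, the chemokine receptor gene of recruited monocytes, had 0 to 5 reads in each library. Of the 9 tested genes of this group 6 lay below 0 and 3 above. The log2 difference of Cd52 was −0.38 (SE 0.79, interval −2.24 to 1.48, limma adjusted p = 0.884), and it was 0.44 without WT library 3.

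Pattern and scavenger receptors were highest in CKO library 3. Clec4d, which encodes a C-type lectin receptor for mycobacterial glycolipid, was at 15.3, 8.36 and 31.1 RPKM in WT, compared with 8.42, 9.87 and 73.9 RPKM in CKO. Clec7a, the gene for the beta-glucan receptor dectin-1, was at 0.617, 1.42 and 0.670 RPKM in WT against 0.295, 0.144 and 7.31 RPKM in CKO. Msr1, the scavenger receptor A gene, was at 5.29, 0.776 and 5.76 RPKM in WT, compared with 2.99, 1.00 and 14.2 RPKM in CKO. The mean level of this group, 4.40 in CKO library 3, equalled the identity level there, while in the other libraries it lay 0.70 to 1.57 below it. The log2 difference of Clec4d was 0.22 (SE 0.84, interval −1.78 to 2.21, limma adjusted p = 0.945), and it was −0.75 without CKO library 3 and −0.21 without WT library 2.

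Cybb, Ncf1 and Ncf4 encode parts of the phagocyte NADPH oxidase, which makes superoxide. Cybb, the catalytic subunit gene, was at 2.24, 9.14 and 7.95 RPKM in WT against 1.94, 0.605 and 8.34 RPKM in CKO. Ncf1, a cytosolic subunit gene, was at 6.15, 5.86 and 15.4 RPKM in WT, compared with 3.73, 2.17 and 11.2 RPKM in CKO. Ncf4 was at 1.59, 1.47 and 8.24 RPKM in WT against 1.24, 0.878 and 3.56 RPKM in CKO. All 3 lay below 0 in the comparison, with a median of −0.71. Ncf1 had a log2 difference of −0.71 (SE 0.56, interval −2.03 to 0.60, limma adjusted p = 0.690), which was −0.29 without CKO library 2 and −1.26 without CKO library 3.

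Actin regulators of leukocytes were highest in WT library 3, as Csf1r was. Lcp1, which encodes the actin-bundling protein L-plastin, was at 15.1, 4.10 and 41.8 RPKM in WT, compared with 12.8, 4.83 and 31.3 RPKM in CKO. Coro1a, the coronin 1A gene, was at 4.36, 3.02 and 15.7 RPKM in WT against 4.12, 2.48 and 4.44 RPKM in CKO. Aif1, the gene for the calcium-binding protein IBA1, was at 0.675, 0.0943 and 2.02 RPKM in WT, compared with 1.24, 0.454 and 0.769 RPKM in CKO. The log2 difference of Lcp1 was −0.14 (SE 0.88, interval −2.22 to 1.93, limma adjusted p = 0.969), and it turned to 0.60 when WT library 3 was left out and to 0.47 when CKO library 2 was.

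**Figure D3:**
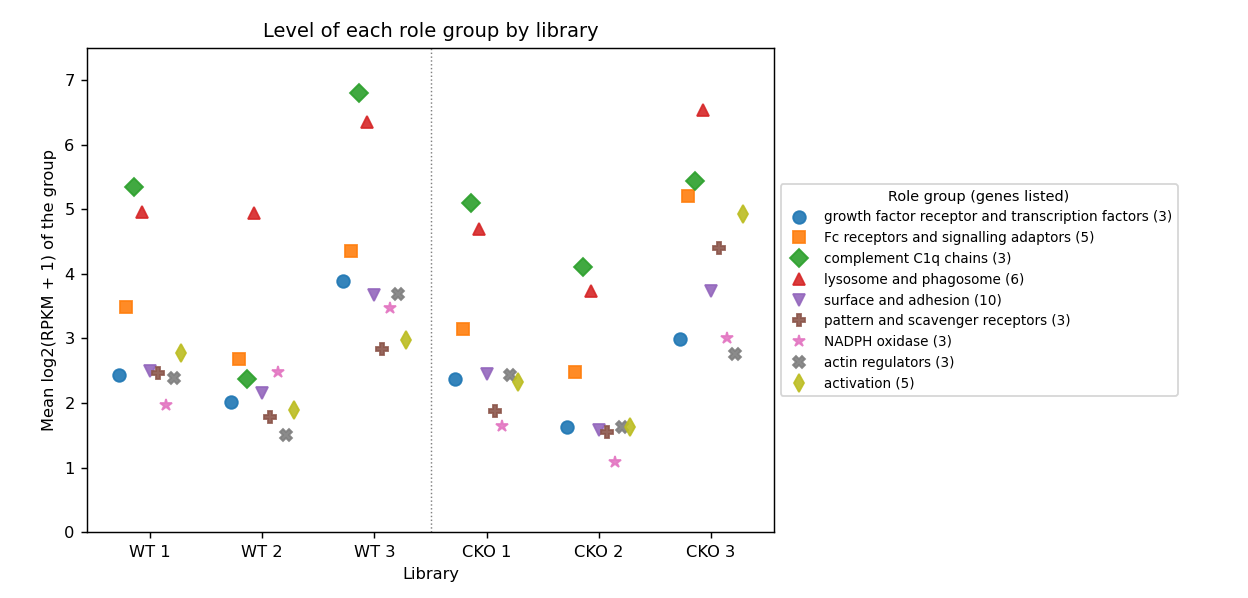
Each symbol is the mean log2(RPKM + 1) of the listed genes of 1 role group in 1 library, with WT libraries left and CKO libraries right of the dotted line. The C1q chains (green diamonds) drop to 2.37 in WT 2, and the activation genes (yellow diamonds) reach 4.92 in CKO 3.

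Among the activation genes, CKO library 3 held the highest value of 4 of the 5 listed. Arg1 encodes arginase 1, an enzyme of arginine breakdown induced by interleukin 4 in mouse macrophages. Arg1 was at 0.195, 0.0327 and 0.0780 RPKM in WT against 0.107, 0.490 and 130.8 RPKM in CKO. These values rest on 5, 1 and 2 reads in WT and 3, 14 and 3429 reads in CKO. CKO library 3 stood 267-fold above the next library, CKO library 2. Chil3, the gene for the chitinase-like protein Ym1, had 0 reads in 5 libraries and 56 reads (2.05 RPKM) in CKO library 3. With 0 reads taken as at most 3 reads per library, that value was at least 18.2-fold higher than in any other library. Neither gene passed the filter on low values, and a single library gives no replicate check.

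Mrc1, the mannose receptor gene (CD206), was at 14.0, 0.491 and 13.4 RPKM in WT, compared with 14.6, 1.22 and 20 RPKM in CKO. Library 2 of each genotype was low, and the other 4 lay between 13.4 and 20 RPKM. Gpnmb, a gene for a transmembrane glycoprotein of lysosome-rich macrophages, was at 65.0, 41.1 and 40.8 RPKM in WT against 17.5, 12.4 and 150.9 RPKM in CKO. CKO libraries 1 and 2 lay below the lowest WT library and CKO library 3 above the highest. In WT, Gpnmb did not follow the identity level, which was 3.22, 2.64 and 4.40 in the same order. Which cells of the cultures expressed Gpnmb was not tested. Trem2, which encodes a lipid receptor that signals through Tyrobp, was at 11.6, 9.83 and 44.8 RPKM in WT, compared with 8.71, 5.46 and 18.9 RPKM in CKO. Trem2 had the narrowest range of these relative to Csf1r, at 0.703 to 1.85 times Csf1r. Gpnmb and Mrc1 ranged from 0.998 to 14.8 and from 0.0683 to 1.96 times Csf1r.

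By test, 0 of the 3 tested activation genes differed. The log2 differences were 0.39 for Mrc1 (SE 1.15, interval −2.32 to 3.10, limma adjusted p = 0.923) and −0.77 for Trem2 (SE 0.64, interval −2.28 to 0.74, limma adjusted p = 0.705). Gpnmb had −0.54 (SE 0.87, interval −2.59 to 1.51, limma adjusted p = 0.853). The sign of Mrc1 turned when WT library 2 (−0.71), CKO library 3 (−0.22) or CKO library 1 (−0.00) was left out, and that of Gpnmb when CKO library 2 was (0.12). Trem2 had −0.12 when WT library 3 was left out and −1.22 when CKO library 3 was. The mean level of the 5 listed activation genes minus the identity level was −0.45, −0.75 and −1.43 in WT against −0.70, −0.61 and 0.52 in CKO, in log2 units. Arg1 and Chil3, low outside CKO library 3, enter this mean. With only the 3 tested activation genes, a choice made after seeing the data, the values were 1.32, 0.50 and 0.51 in WT against 0.80, 0.29 and 0.92 in CKO, a difference of −0.11. With all 5 genes the group means were −0.88 ± 0.51 (SD, n = 3) in WT and −0.26 ± 0.68 (SD, n = 3) in CKO, the groups overlapped, and the difference of 0.61 was 0.22 without CKO library 3 and 0.33 without WT library 3. A pseudocount of 0.1 gave 1.13.

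**Figure D4:**
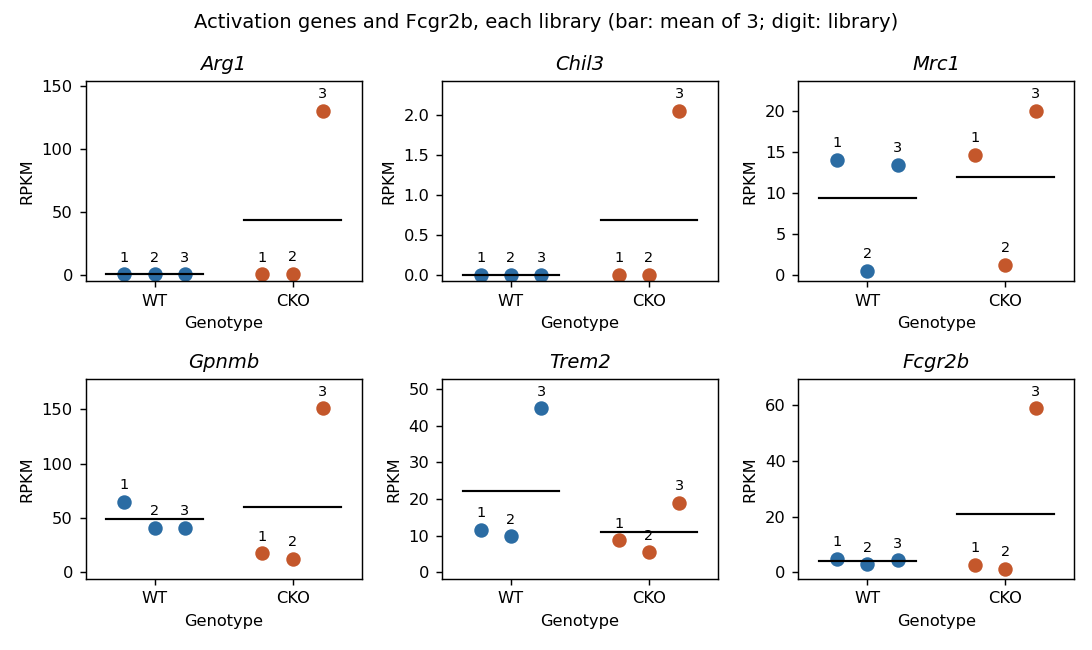
RPKM of the 5 listed activation genes and Fcgr2b in each library (blue WT, orange CKO; the digit is the library number and the bar the mean of 3). Arg1, Chil3 and Fcgr2b are high in CKO 3 alone, Mrc1 is low in library 2 of both genotypes, and Trem2 is highest in WT 3.

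The 2 libraries with the highest identity level differed in the balance of macrophage genes. The following counts compare single libraries, have no test, and cover genes with at least 1 RPKM in either library. Between WT library 3 and CKO library 3, 17 of 40 genes lay within 2-fold, 12 were at least 2-fold higher in WT library 3 and 11 in CKO library 3. Higher in WT library 3 were Csf1r (4-fold), Coro1a (3.53-fold), C1qb (2.68-fold), Spi1 (2.54-fold) and Trem2 (2.37-fold). Higher in CKO library 3, beside Arg1 and Chil3, were Fcgr2b (13.6-fold), Clec7a (10.9-fold), Itgam (3.86-fold), Gpnmb (3.70-fold) and Ctss (2.82-fold). Tyrobp (1.11-fold) and Cd68 (1.14-fold) were near equal. Between WT library 1 and CKO library 1, 35 of 36 genes lay within 2-fold, and Gpnmb, 3.71-fold lower in CKO library 1, was the exception. Genes in these sentences were picked after their values were seen.

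WT library 2, from passage 7, also differed in kind from WT library 1, from passage 5. Of 36 genes 11 were at least 2-fold lower in WT library 2 and 5 at least 2-fold higher. Among those lower were Mrc1 (28.6-fold), Ms4a6c (13.7-fold), C1qa (11.7-fold), Ms4a7 (8.94-fold), C1qb (8.81-fold), C1qc (8.48-fold), Fcgr1 (7.67-fold) and Msr1 (6.81-fold). Cybb (4.08-fold) and Cd52 (3.19-fold) were higher. Spi1 (1.08-fold), Tyrobp (1.11-fold) and Lyz2 (1.21-fold) were near equal. The genes named here were picked after their values were seen. Over all 15063 genes, WT library 2 held the lowest value for 5283. Passage cannot be told apart from the library here, since 1 library was of passage 7.

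Ratios of genes within a library compare its macrophage genes with one another. The summed RPKM of the C1q chains was 14.5%, 1.86% and 21.2% of the Lyz2 RPKM in WT against 19.3%, 15.3% and 4.40% in CKO. WT library 2 and CKO library 3 were low and the other 4 lay between 14.5% and 21.2%. Lyz2 was 64.9, 95.5 and 38.9 times Csf1r in WT and 42.7, 66.3 and 289 times Csf1r in CKO, with CKO library 3 apart. Itgam was 4.95 times Csf1r in CKO library 3 and 0.306 to 0.803 times in the other 5. None of these ratios separated the genotypes.

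**Figure D5:**
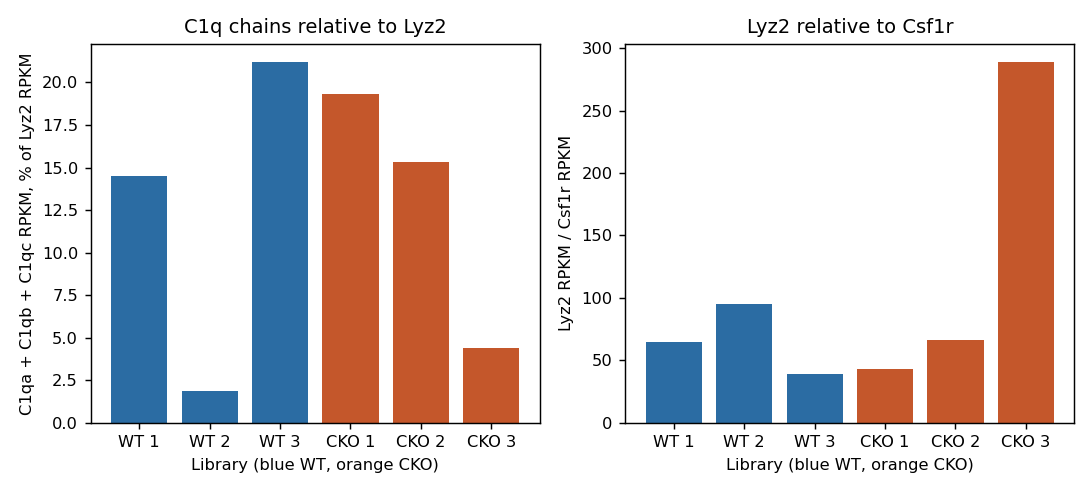
Bars give, for each library, the summed RPKM of C1qa, C1qb and C1qc as a percentage of Lyz2 RPKM (left) and Lyz2 RPKM divided by Csf1r RPKM (right). On the left WT 2 (1.86%) and CKO 3 (4.40%) are low, and on the right CKO 3 (289) stands apart.

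A further list held 57 macrophage and leukocyte genes. Of 55 listed, 34 were highest in WT library 3 and 16 in CKO library 3. Of 42 tested 35 lay below 0, with a median log2 difference of −0.31. By limma 0 passed, and 1 had an unadjusted p under 0.05, where 9.74% of all tested genes did. Folr2, a folate receptor gene of tissue-resident macrophages, had the lowest p: it was at 6.50, 8.90 and 29.6 RPKM in WT, compared with 3.22, 0.466 and 1.91 RPKM in CKO (limma adjusted p = 0.303, log2 difference −2.33 with SE 0.60). Its groups did not overlap, as in 16.7% of all tested genes. Clec4n, the gene for the fungal receptor dectin-2, was at 70.4 RPKM in CKO library 3 and 6.02 to 14.0 RPKM elsewhere. Mmp12, the macrophage elastase gene, was at 49.3 RPKM in WT library 2, 48.9 RPKM in CKO library 3 and 1.02 to 9.15 RPKM elsewhere.

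Genes of antigen presentation and activation lists did not pass either. In the MHC class II list, 0 of 3 tested genes passed (1 at an unadjusted p under 0.05) and all 3 lay below 0. Over all tested genes 9.74% had such an unadjusted p, and in 16.7% the groups did not overlap. H2-DMb1, which encodes a chain of the peptide-loading factor H2-M, was at 8.12, 23.3 and 12.7 RPKM in WT against 3.29, 3.58 and 5.48 RPKM in CKO (limma adjusted p = 0.284), without overlap. Among 5 tested genes of the interleukin 4 response 0 passed, also at an unadjusted p under 0.05. Stat6, the transcription factor gene of that response, was level at 24.1 to 32.5 RPKM, and Tgm2, a transglutaminase gene, was at 77.1 RPKM in CKO library 3 and 41.4 RPKM in CKO library 2 against 8.89 to 15.3 RPKM in the rest.

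Of 9 tested inflammatory genes 0 passed, and 2 had an unadjusted p under 0.05, beside 9.74% of all tested genes (16.7% without overlap). Ptgs2, the inducible cyclooxygenase gene, which stromal cells also express, was at 80.2, 1.80 and 21.7 RPKM in WT, compared with 95.5, 152 and 269 RPKM in CKO (limma adjusted p = 0.425, log2 difference 3.20 with SE 1.13), without overlap. Nos2, the gene for inducible nitric oxide synthase, which uses the same substrate as arginase, was at 11.3 RPKM in CKO library 3 and at 0.0123 to 0.0481 RPKM in the others. Il6 was at 46.8 RPKM and the chemokine gene Ccl3 at 53.8 RPKM in CKO library 3, against at most 17.1 and 9.70 RPKM elsewhere. CKO library 3 thus held the highest Arg1 and the highest Nos2.

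Of 11 tested ligand genes of macrophages 0 passed, and 3 had an unadjusted p under 0.05. The shares over all tested genes were 9.74% at that p and 16.7% without overlap of the groups. Csf1, 1 of the CSF1R ligand genes, was at 316, 85.6 and 268 RPKM in WT against 176, 299.9 and 271 RPKM in CKO. It was lowest in WT library 2. Il34, which encodes the other CSF1R ligand, was at 3.59, 15.6 and 10.9 RPKM in WT, compared with 2.63, 3.74 and 1.27 RPKM in CKO (limma adjusted p = 0.398, log2 difference −1.51 with SE 0.51), and its groups overlapped. Gas6, which encodes a bridging ligand for uptake of dying cells, was at 404, 835 and 592 RPKM in WT, compared with 210.3, 149 and 35 RPKM in CKO (limma adjusted p = 0.314, log2 difference −2.49 with SE 0.67), without overlap. Il33 averaged 5.74 ± 6.17 RPKM in WT against 0.488 ± 0.289 RPKM in CKO (limma adjusted p = 0.373), also without overlap. Ccl7, a monocyte chemoattractant gene, was at 436 RPKM in CKO library 3 and 11.9 to 199 RPKM elsewhere.

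Markers of other marrow cells moved with some libraries, and their part in the macrophage values was not tested. Of 11 osteoclast genes 10 were listed, with a summed RPKM of 74.9, 104.5 and 80.7 in WT and 51.8, 53.5 and 98.2 in CKO. Of the 4 tested 0 passed, and 1, Ctsk, had an unadjusted p under 0.05, beside 9.74% of all tested genes. Ctsk, the cathepsin K gene of osteoclasts and stroma, made up most of each sum, so the sums are not a measure of osteoclasts alone. It was at 61.5 to 94.1 RPKM in WT, compared with 41.9 to 57.2 RPKM in CKO. Mmp9 was at 21.1 RPKM in CKO library 3 and below 1 RPKM in the others. Among the 10 listed, 4 were highest in CKO library 3 and 1, Nfatc1, was lowest there. Of the granulocyte genes 8 of 14 were listed, with a summed RPKM of 6.23, 0.991 and 3.68 in WT and 3.48, 0.617 and 52.6 in CKO. Mmp8 made up 42.8 RPKM of the sum in CKO library 3. Among the 8 listed, 6 were highest in CKO library 3, where 3472 of all 15063 genes were. S100a8, an abundant neutrophil gene, was at 0 to 5.75 RPKM, and S100a9 was at 0 in WT library 2 and CKO library 2. Mcpt8, a basophil protease gene and the 1 listed of 8 mast cell and basophil genes, was at 17.9, 0.0576 and 1.58 RPKM in WT against 27.8, 25.6 and 36.7 RPKM in CKO (limma adjusted p = 0.369). Of 11 erythroid and megakaryocyte genes 5 were listed, with a summed RPKM of 1.86 to 60.5 in WT and 16.4 to 231 in CKO. Pf4, the gene for platelet factor 4, made up most of the sum in CKO library 3, at 210.1 RPKM, and was at 0.0822 to 44.2 RPKM elsewhere. Among the 5 listed, 2 (Pf4 and Ppbp) were highest in CKO library 3 and 2 (Hba-a1 and Itga2b) in WT library 3. Gp9 was not listed. Which cells expressed Pf4 was not tested. Of 13 lymphocyte genes 3 were listed, all highest in CKO library 3, and they summed to at most 2.27 RPKM. Of 8 dendritic cell genes 2 were listed, and they summed to at most 3.27 RPKM. The dendritic cell gene Itgax, which encodes CD11c, was at 2.98 RPKM in WT library 2 and below 1 RPKM in the others.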

How the data were processed

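RNA-seq was analysed from 6 libraries of mouse bone marrow MSC cultures, 3 WT and 3 CKO, grouped by the titles. Per the labels' protocols, stranded mRNA libraries were made with a TruSeq kit from TRIzol-extracted RNA. The authors deposited 1 RPKM value per gene and library. The headers call it only expression, and the unit was read from the values: whole reads came out in all 6 libraries for 15056 of 15063 genes (99.95%), given a whole-number total for each library and a whole-number length for each gene, within 0.0001 read plus a relative 1e-07. The recovered totals were 17351907, 20689481 and 17352121 in WT and 18938287, 19345817 and 17751778 in CKO, and 3 reads in a gene of 1 kb equal 0.145 to 0.173 RPKM (counting error only). Per the submitters' processing notes the genome build was mm9. No source used here gives the aligner, the counting tool or the use of strand, so overlapping or near-identical genes may share reads. A table of the whole series held the same values and was not used. The file column of WT library 3 names another animal number than its description does.

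Tests used limma 3.58.1 in R 4.3.3 on log2(RPKM + 1), which understates differences of low genes, with trend and robust moderation and genotype as the only term. A gene was tested when 3 or more libraries reached 1 RPKM. Two-sided p-values were corrected over 11085 genes (Benjamini-Hochberg), with a threshold of 0.05. An exact permutation test of 3 against 3 libraries cannot go below p = 0.1. Alternatives were other scalings, filters and a pseudocount of 0.1, voom on recovered reads, limma with neither trend nor robust moderation, the replicate number as a block, the identity level as a covariate, averaging the WT libraries of 1 animal label, and leaving out each library. Limiting the activation mean to tested genes was added after seeing the data.

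The members and the 16 further lists were chosen with earlier results of these data known. Values in every library are given for the activation genes, for up to 3 genes of highest mean in each role group and for the identity genes with the lowest p in each direction. From other lists come defining markers, the highest gene and the gene with the lowest p. Other genes with values were chosen after their values were seen: Clec4n, Mmp12, Nos2, Il6, Ccl7, Mmp8, Mmp9, Itgax, Il33, Il34 and Ccl3. Promoter sequences are from RefSeq (GRCm38.p6), with Python 3.11.15.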

Additional observations from a re-analysis of the deposited data

How the results depend on the processing

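No macrophage gene passed under any of the alternatives run, where the lowest limma adjusted p was 0.424 (Trem2, with the block). At an unadjusted p under 0.05 there were 5 of 35 without CKO library 3, against 800 of 10893 over all genes tested. With the block there were 2 of 35 (all genes 1123 of 11085), without WT library 2 there was 1 (all genes 642 of 10920), and otherwise 0. All 35 lay below 0 without CKO library 3, and 10 did without WT library 3. The 1 gene called of all tested became 2 with median centring or quantile normalization, 4 with the filter at RPKM 5, 20 with the WT libraries of 1 animal label averaged, and 0 with TPM rescaling, a pseudocount of 0.1, no filter or voom. With 1 library left out it was 0 to 24. TPM rescaling moved the median of all genes from 0.03 to −0.07. In the other lists 1 gene, Klf2, passed with the filter at RPKM 5 or with averaging, and 0 to 2 (Klf2 and Mcpt8, without WT library 1) with 1 library left out. The identity median ran from −0.86 to 0.33 with 1 library left out and was −0.66 with averaging. The activation median ran from −1.22 to 0.12 and was 0.39 without a filter, where Arg1 and Chil3 enter. The activation minus identity difference of 0.61 was −0.11 with tested genes only, 1.13 with a pseudocount of 0.1 and 0.85 with TPM rescaling. Of 194 alternative values for the 12 genes with a printed log2 difference, 173 kept their sign and 21 did not. With 1 library left out, the ranges that crossed 0 were Tyrobp −1.03 to 0.26, C1qb −1.16 to 1.09, Lyz2 −1.23 to 0.37, Cd52 −1.16 to 0.44, Clec4d −0.75 to 0.75, Lcp1 −0.93 to 0.60, Fcgr2b −0.79 to 1.60, Mrc1 −0.71 to 1.40 and Gpnmb −1.63 to 0.12. Those of Csf1r (−1.33 to −0.15), Ncf1 (−1.26 to −0.29) and Trem2 (−1.22 to −0.12) stayed below 0. With averaging, C1qb was −0.75, Clec4d −0.04 and Mrc1 −0.28. Without CKO library 1 Mrc1 was at −0.00. The cause of these shifts was not tested.

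Over all tested genes, replicate numbers paired the libraries weakly at most. Deviations from the group means correlated at 0.20, 0.01 and −0.02 for libraries 1, 2 and 3, and WT library 3 correlated best with CKO library 2 (0.21). The identity level of the macrophage genes, though, was highest in library 3 and lowest in library 2 of both genotypes. The block lowered the standard error of Tyrobp from 0.73 to 0.23 and that of Gpnmb from 0.87 to 0.79. With the replicate block 0 genes of all tested passed, and the identity median stayed at −0.26.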
